A study of Mus musculus with 12 samples.

Results

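The 45 genes described here code mostly for the factors that start, extend and end protein synthesis on the cytoplasmic ribosome. Eif2ak2, Eif2ak4 and Eef2k code for kinases that act on such factors. The set holds the genes, among the 7318 in the count table, whose symbol begins with Eif, Eef1 or Eef2. It also holds Etf1, Gspt1, Abce1, Denr, Mcts1 and Pabpc1. Symbols beginning with Eif4e, Eif4g or Eif4a, and Eif4b, Eif4h and Eef1e1, were left out of the set. The genes were measured in cells of the mammary glands of female FVB/N mice, 4 weeks old, all of which carried both MMTV-Wnt1 and MMTV-iFgfr1. MMTV stands for a virus-derived promoter that drives expression in mammary epithelium, Wnt1 is a secreted WNT ligand, and iFGFR1 is a form of FGF receptor 1 that is switched on by the dimerizing compound AP20187. The mice received an injection of vehicle or of AP20187 for 6 h, and RNA and ribosome-protected fragments (footprints) were sequenced from the cell pellets, with 3 libraries in each of the 4 groups. The question was what added FGFR1 signalling does to RNA and to translation where WNT signalling is already high. Every group carried the Wnt1 transgene and no group received AP20187 without iFgfr1, so the receptor and the compound cannot be told apart. Cells were enriched by short spins and not sorted, and since no label states how many mice went into a library, p-values reflect differences among these libraries only, part of which may be technical.

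A new protein begins when eIF2, carrying the initiator tRNA and GTP, joins the small ribosomal subunit with eIF3, eIF1, eIF1A and eIF5, and the complex scans the messenger for a start codon. eIF5B then joins the large subunit, and eIF2B recharges eIF2 with GTP, the step that the eIF2 kinases block under stress by phosphorylating the eIF2 alpha subunit. In elongation, eEF1A delivers each aminoacyl-tRNA and is recharged by the eEF1B complex, and eEF2 moves the ribosome by a codon, unless its kinase eEF2K has phosphorylated it. eRF1 (Etf1) and eRF3 (Gspt1) release the finished chain, and ABCE1 splits the ribosome for another round. Several of these factors, eEF1A, eEF2 and poly(A)-binding protein among them, are themselves made from messengers with a 5′ terminal oligopyrimidine tract, a class whose translation follows growth signals through mTORC1.

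The RNA libraries held 94513818 to 251874393 counts over the listed genes and the footprint libraries 1772969 to 11018709, so footprint values carry more counting error. A floor of 3 counts equals 0.0119 to 0.0317 library-scaled counts (CPM) in RNA and 0.272 to 1.69 CPM in footprints. The 45 genes took 2.27% to 2.53% of all RNA counts and 1.27% to 1.63% of footprint counts in a library. Markers of the labelled epithelial cells were present: the 6 listed luminal epithelial markers summed to 3674 to 4645 CPM of RNA with vehicle and 6158 to 8815 with AP20187, and the 6 basal markers to 4720 to 5461 and 2671 to 4113. These sums hide genes that went the other way. Of the luminal markers 5 were called higher in RNA and 1, Krt19, lower (log2 change -1.13). Of the basal markers 3 were called lower, 1, Krt17, higher (0.89), and 2 were not called. Cells of other types were also present and moved with treatment: the 4 listed fibroblast markers summed to 2751 to 5141 CPM with vehicle and 944 to 1421 with AP20187, the 3 endothelial markers to 413 to 563 and 209 to 236, and the 4 adipocyte markers to 259 to 496 and 46.99 to 101. The part of this shift in the results that follow was not tested. In such bulk samples fewer cells of a type and less RNA per cell cannot be told apart.

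Few translation factor genes changed in RNA when AP20187 was given, and the largest rise was in a subunit of the guanine nucleotide exchange complex eIF2B. In RNA, 4 of 45 genes rose and 1 fell, which is 11.1%, where 26.2% of the 7314 genes tested changed in either direction (12.4% rose and 13.9% fell). The rises were Eif2b4 and Eif2b3, which code for the delta and gamma subunits of eIF2B, Eif2d, a factor that can place initiator tRNA on the ribosome without eIF2, and Eif3g, an RNA-binding subunit of eIF3. The fall was Eef1a2, the eEF1A form of muscle and nerve, at the edge of detection. A total of 40 of 45 log2 fold changes lay within 0.5 of 0, with no such count made over all genes. Of the 45 changes 32 were above 0, where 3731 of 7314 tested genes were. The median over the 45 genes was 0.09 on the log2 scale, and 0.013 over all genes tested. Each of the 3 AP20187 RNA libraries exceeded each of the 3 vehicle ones for 10 genes and was under each for 3, and the groups overlapped for the other 32, where 21.9% of all tested genes lay above and 23.1% below. The number of rises depended on the libraries used. It was 1 without vehicle RNA library 1, without vehicle RNA library 3 or without AP20187 RNA library 1, 2 without AP20187 library 3, 5 without vehicle library 2 and 7 without AP20187 library 2, and the genes called over the whole table numbered 717, 538 and 782 in the first 3 of these fits against 1919 with all libraries.

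**Figure D1:**
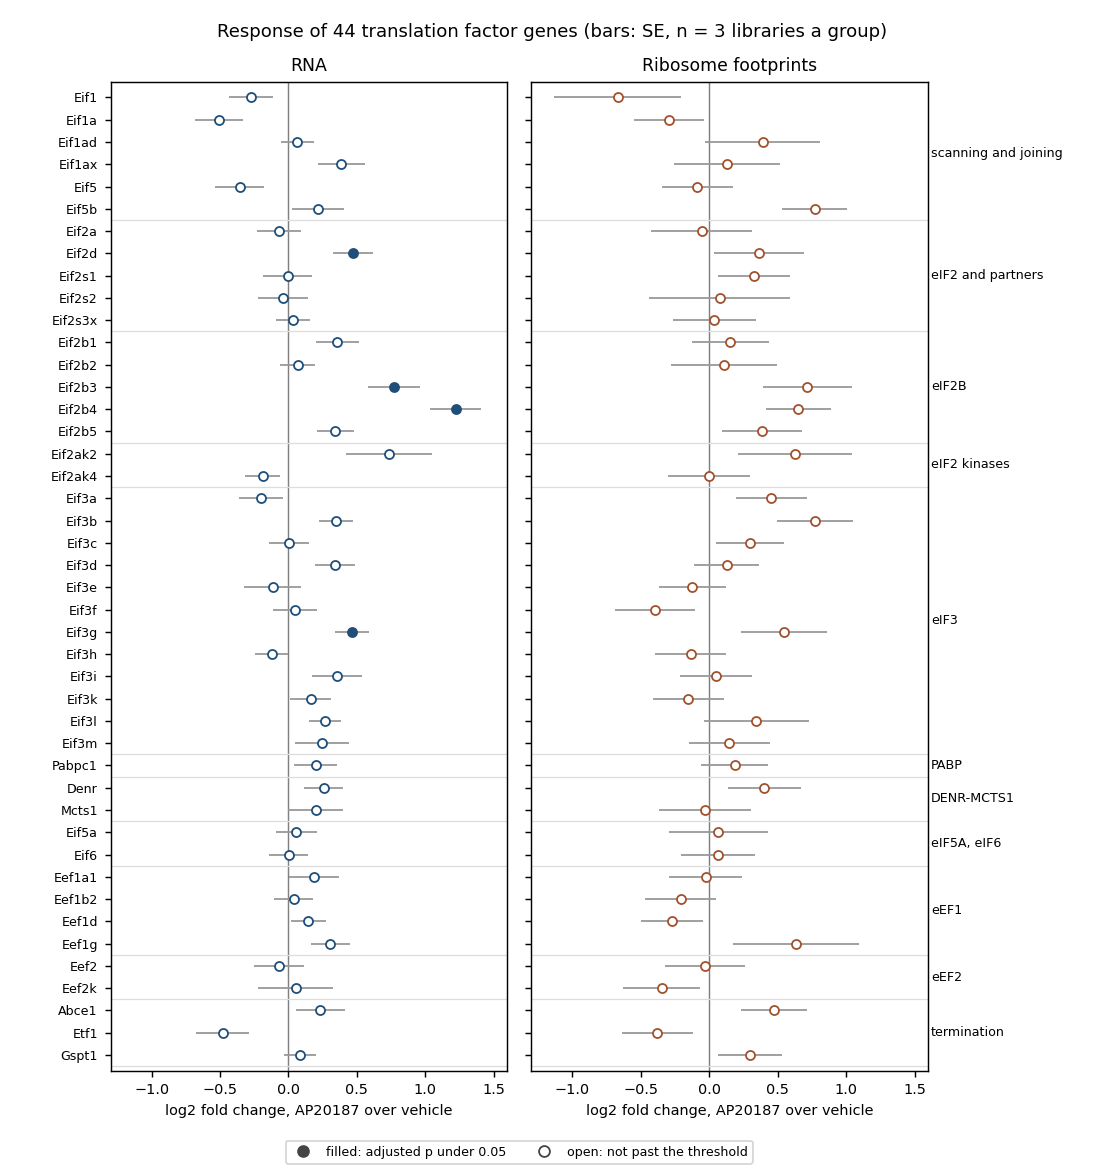
Response to AP20187 of the 44 genes tested in both RNA (left) and footprints (right), as the log2 fold change over vehicle with its standard error, ordered by role. Filled points passed an adjusted p of 0.05: 4 rises in RNA and 0 changes in footprints. Eef1a2, with a fitted RNA change of -4.05 and no footprint test, is not shown.

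Footprints, which count ribosomes on a messenger, gave no call among the 44 genes tested, where 2.54% of 7041 genes changed (0.937% rose and 1.6% fell). Without adjustment 3 of 44 genes had a p under 0.05, where 1160 of 7041 tested genes did. The 3 were Eif5b, Eif3b and Eif2b4, all of them higher with AP20187. DESeq2 called 1 member, Eif5b (adjusted p = 0.0431), where it called 538 of 7318 genes. Vehicle and AP20187 footprint libraries of the same replicate number deviated together, and with the replicate number as a block 2 genes rose, Eif5b (0.77, adjusted p = 0.0203) and Eif3b (0.74, adjusted p = 0.036). The block also raised the calls over the whole table from 179 to 715, so 2 of 44 stands beside a higher background in that fit. The 179 calls fell to 0 to 3 without any 1 vehicle footprint library or without AP20187 footprint library 1. Every AP20187 footprint library exceeded every vehicle one for 10 of 45 genes and was below it for Eef1d alone, where 11.8% of tested genes lay above and 11.5% below. The 10 were Abce1, Denr, Eef1g, Eif2b4, Eif2d, Eif2s1, Eif3a, Eif3b, Eif5b and Gspt1, from several steps of translation. Of the 44 log2 fold changes 28 were above 0, where 3660 of 7041 tested genes were. The 44 changes had a median of 0.12 and a range of -0.67 to 0.77.

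All 5 subunits of eIF2B were listed, and all 5 had a fitted RNA change above 0, where 3731 of 7314 tested genes did. Of the 5 changes 2 passed the test, where 26.2% of all genes did. Eif2b4 (chr5:31187558-31193430, minus strand) had 44.3, 51.2 and 33.8 CPM of RNA in the vehicle libraries and 117, 94.1 and 91.2 in the AP20187 libraries. The groups lay apart, and the change was 1.22 ± 0.19 (log2, SE), with an adjusted p of 0.00704. It was the only member call to hold when any 1 RNA library was left out, with adjusted p-values of 0.00519 to 0.0264. Eif2b4 overlaps Snx17, a sorting nexin gene on the opposite strand, over 204 of the 2599 bases that its annotated transcripts, noncoding ones included, cover with exons. Snx17, looked up after its value was seen, rose by 0.88 (adjusted p = 0.00889). Reads over the bases shared by the pair could not be separated unless the counting used strand. The strand setting is not given in the sources used here. Eif2b3 (chr4:117019402-117087306, plus strand) had 24.8, 32.1 and 29.5 CPM with vehicle and 49.1, 39.5 and 59.1 with AP20187, again without overlap. Its change of 0.77 ± 0.19 passed with an adjusted p of 0.0222, which became 0.0898, 0.0789 and 0.064 without vehicle RNA library 1, vehicle RNA library 3 or AP20187 RNA library 1.

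The other eIF2B genes moved less. Eif2b5, the epsilon subunit that carries the exchange activity, had 109, 112 and 114 CPM with vehicle and 148, 121 and 157 with AP20187. The groups did not overlap and the vehicle values lay close together, with a change of 0.34 ± 0.13 that missed the threshold (adjusted p = 0.0899) and passed it without AP20187 RNA library 2 (0.0249). Eif2b1, the alpha subunit and part of the regulatory core that senses phosphorylated eIF2, had a change of 0.36 ± 0.16 (adjusted p = 0.125). Eif2b2, the beta subunit, had 73.8, 82.6 and 74.1 CPM with vehicle and 81.8, 73.5 and 86.2 with AP20187, values that overlapped, and a change of 0.068 ± 0.13. In footprints the fitted changes of the 5 genes lay between 0.11 (Eif2b2) and 0.72 (Eif2b3). Eif2b4 had 78.4, 80.4 and 91.96 CPM of footprints with vehicle and 123, 125 and 149.5 with AP20187, also without overlap. That footprint change of 0.65 ± 0.24 had an adjusted p of 0.192.

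**Figure D2:**
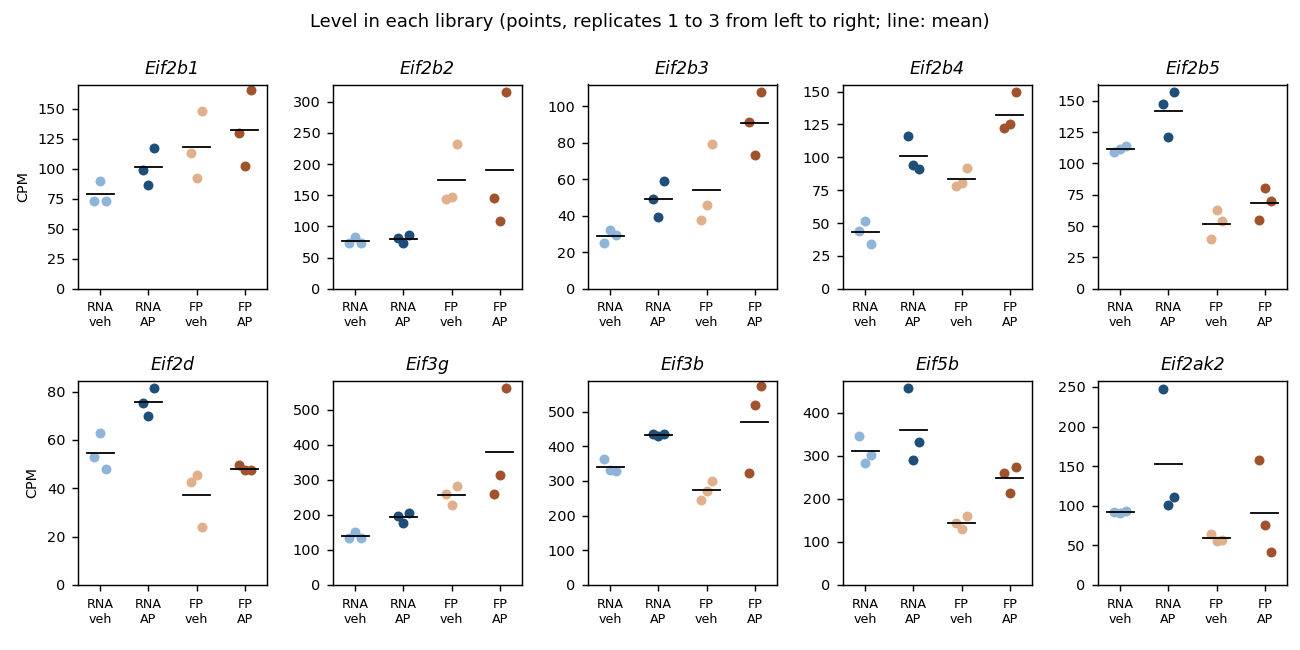
CPM of 10 genes in each of the 12 libraries, with RNA in blue and footprints (FP) in brown, vehicle (veh) in light and AP20187 (AP) in dark shades, points for libraries 1 to 3 and a line for the mean. Each panel has its own axis from 0. Eif2b4 RNA lies between 33.8 and 51.2 CPM with vehicle and between 91.2 and 117 with AP20187, and for Eif2ak2 AP20187 library 1 stands at 248 CPM above the other RNA libraries.

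The 3 subunits of eIF2 itself had no call in RNA or footprints. Eif2s1, the alpha subunit phosphorylated by the stress kinases, had 169, 189.9 and 208 CPM with vehicle and 178, 151 and 235 with AP20187. The AP20187 range spanned the vehicle range. Eif2s2, the beta subunit, had 174, 201 and 198 CPM with vehicle and 181, 144 and 234 with AP20187, and Eif2s3x, the X-linked gamma subunit, had 53.4, 54.1 and 50.1 CPM with vehicle and 55.03, 50.3 and 56.3 with AP20187. The fitted changes of the 3 subunits were -0.0050 ± 0.18, -0.037 ± 0.18 and 0.035 ± 0.12 in RNA, and 0.33 ± 0.26, 0.076 ± 0.52 and 0.037 ± 0.30 in footprints. Of the alternative initiator tRNA factors, Eif2a had a change of -0.068 ± 0.16 in RNA, and Eif2d (chr1:131153181-131187658, plus strand) rose. Eif2d had 52.8, 62.8 and 47.9 CPM with vehicle and 75.3, 69.9 and 81.6 with AP20187, without overlap, a change of 0.47 ± 0.15 with an adjusted p of 0.0468. This call was lost without vehicle RNA library 1 (0.154), vehicle RNA library 3 (0.181), AP20187 RNA library 1 (0.115) or AP20187 RNA library 3 (0.0964), and with upper-quartile scaling (0.0556).

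Of the eIF2 kinases, Eif2ak2 and Eif2ak4 were listed, and neither passed the test with edgeR. Eif2ak2 (PKR, the kinase switched on by double-stranded RNA and induced by interferon) had 92.05, 90.7 and 93.9 CPM of RNA with vehicle and 248, 101 and 111 with AP20187. All 3 AP20187 values lay above the vehicle values, and AP20187 library 1 was far above the other 5 libraries. The change of 0.73 ± 0.31 had an adjusted p of 0.117, and without that library it was 0.22 (adjusted p = 0.341). It passed with DESeq2 (0.0483) and without AP20187 RNA library 2 (0.0392). Footprints of the gene were also highest in AP20187 library 1, at 157, 75.4 and 41.9 CPM in the 3 AP20187 libraries and 64.8, 55.99 and 56.5 in the vehicle libraries. Eif2ak4 (GCN2, the kinase that senses uncharged tRNA) had 91.03, 80.3 and 91.9 CPM with vehicle and 83.7, 75.05 and 72.5 with AP20187, ranges that overlapped, and a change of -0.19 ± 0.13.

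The factors that guide the scanning ribosome to the start codon included 3 with lower fitted RNA values. Eif1a, a copy of the eIF1A gene on an autosome, had 418, 457 and 571 CPM with vehicle and 333, 291 and 395 with AP20187. The groups did not overlap, and the change of -0.51 ± 0.18 missed the threshold (adjusted p = 0.0662). DESeq2 placed it past the threshold (adjusted p = 0.0284). Its X-linked counterpart Eif1ax went the other way, with 87.93, 102.8 and 81.37 CPM with vehicle and 106.5, 103.4 and 145.7 with AP20187, no overlap and a change of 0.39 ± 0.17 (adjusted p = 0.128). Eif1ad, whose product has an eIF1A-like domain, was grouped with the scanning factors by its symbol and had a change of 0.065 ± 0.12. Eif5, whose product stimulates GTP hydrolysis by eIF2 at the start codon, had 1227, 1012 and 1446 CPM with vehicle and 1014, 855 and 1008 with AP20187, overlapping ranges and a change of -0.36 ± 0.18. Eif1, which guards the choice of start codon, had a change of -0.27 ± 0.16.

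Eif5b, the GTPase that joins the large subunit, had no call in footprints with edgeR. It had 144, 129.9 and 161 CPM of footprints with vehicle and 259.9, 214 and 275 with AP20187. The groups were well apart, and the change of 0.77 ± 0.24 had the lowest adjusted p among the 44 genes, 0.126, which passed only with the replicate block or DESeq2, as above. Its RNA values were 346, 283 and 303 CPM with vehicle and 458, 291 and 332 with AP20187, which overlapped, with a change of 0.22 ± 0.19. The difference between the footprint and the RNA change was 0.51 ± 0.30 (adjusted p = 0.988) and did not pass the threshold. Eif5b lies at chr1:37998010-38055579, plus strand, and overlaps Rev1 on the other strand over 1643 of the 9753 exonic bases of its annotated transcripts, noncoding ones included.

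eIF3, the scaffold that binds the small subunit and bridges it to the messenger, had 12 listed subunits. Of the 12, 1 rose in RNA and 0 fell, where 12.4% of all tested genes rose and 13.9% fell. Eif3g (chr9:20894349-20898623, minus strand) had 135, 151 and 134 CPM with vehicle and 195, 178 and 206 with AP20187. The groups lay apart, by 0.46 ± 0.12 with an adjusted p of 0.0283. The call was lost without vehicle RNA library 1 (0.112), vehicle RNA library 3 (0.114), AP20187 RNA library 1 (0.089) or AP20187 RNA library 3 (0.0655). Eif3b, the scaffold subunit that holds Eif3g and Eif3i in a module at the messenger channel, had 362, 333 and 328 CPM with vehicle and 437, 429.9 and 435 with AP20187. Its AP20187 values were nearly equal and above all vehicle values, a change of 0.35 ± 0.12 that missed the threshold (adjusted p = 0.0689) and passed it with DESeq2 (0.0257). Footprints of Eif3b were 246, 272 and 301 CPM with vehicle and 323, 518 and 573 with AP20187, again without overlap (0.77 ± 0.28, adjusted p = 0.185).

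The third member of that module, Eif3i, had overlapping RNA groups, 167, 232 and 162 CPM with vehicle and 214, 225 and 279 with AP20187, and a change of 0.36 ± 0.18 that passed only without vehicle RNA library 2 (0.0405). Eif3d, a cap-binding subunit, and Eif3l lay higher in all 3 AP20187 RNA libraries than in the vehicle libraries, with changes of 0.34 ± 0.15 (adjusted p = 0.118) and 0.27 ± 0.12 (adjusted p = 0.127). Eif3a, the largest subunit, had 1104, 934 and 1162 CPM with vehicle and 1030.1, 831 and 924 with AP20187, overlapping, and its footprints were 495, 644 and 717 CPM with vehicle and 809, 778 and 977 with AP20187, which did not overlap. Its changes were -0.20 ± 0.16 in RNA and 0.45 ± 0.26 in footprints, and the difference between them, 0.61 ± 0.30, had an adjusted p of 0.988. The RNA changes of the other 6 subunits ran from -0.12 (Eif3h) to 0.24 (Eif3m), and their footprint changes from -0.40 (Eif3f) to 0.30 (Eif3c).

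Among the elongation genes Eef1a2 alone had a call. Eef1a1, the main eEF1A gene and the highest of the 45 in RNA per length, had 6575, 7129.6 and 5558 CPM with vehicle and 6892, 7705 and 7296 with AP20187, overlapping values and a change of 0.18 ± 0.18. The eEF1B subunits Eef1b2, Eef1d and Eef1g had changes of 0.040 ± 0.14, 0.15 ± 0.13 and 0.30 ± 0.14 in RNA, with no call. Eef1d was the only gene with all AP20187 footprint libraries below all vehicle libraries, at 211, 215 and 229 CPM with vehicle and 170.1, 174 and 203 with AP20187, a change of -0.27 ± 0.23 (adjusted p = 0.622). Eef2 had 4618, 3799 and 3794 CPM of RNA with vehicle and 4005, 4294 and 3361 with AP20187. These overlapped, as did its footprints, 3202, 2977 and 2340.1 CPM with vehicle and 3402, 3051 and 1958 with AP20187. Eef2k, the kinase that inhibits it, had 42.97, 44.4 and 33.9 CPM of RNA with vehicle and 38.4, 60.1 and 27.4 with AP20187, where the AP20187 range spanned the vehicle range.

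Eef1a2 was called lower on very few reads. It had 28, 14 and 32 RNA counts in the vehicle libraries and 0, 0 and 4 in the AP20187 libraries, and 0, 0 and 14 footprint counts against 1, 0 and 1. The fitted RNA change of -4.05 ± 1.26 depends on the prior count of the fit and is no measured fold (adjusted p = 0.0467). DESeq2 did not call it (0.152), nor did edgeR without vehicle RNA library 1 (0.085), 2 (0.0615) or 3 (0.168) or without AP20187 RNA library 1 (0.138) or 2 (0.0701). The gene is known from muscle and nerve, and the 4 listed Schwann cell markers summed to 209 to 352 CPM of RNA with vehicle and 66.0 to 133 with AP20187, a difference whose part in this value was not tested.

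Of the termination and recycling genes, Etf1, the release factor that reads the stop codon, had 1039.6, 872 and 1211 CPM of RNA with vehicle and 767, 605 and 867 with AP20187. All AP20187 values were below all vehicle values, a change of -0.48 ± 0.19 that missed the threshold (adjusted p = 0.0984), while DESeq2 called it (0.049). Gspt1, its GTPase partner, had 261, 252 and 269.8 CPM with vehicle and 282, 267 and 282 with AP20187, a change of 0.085 ± 0.12. Abce1, the recycling ATPase, had 313, 322 and 336 CPM of RNA with vehicle and 406, 288 and 448 with AP20187, which overlapped, and 198, 138 and 172 CPM of footprints with vehicle and 237, 232 and 242 with AP20187, which did not (0.47 ± 0.24, adjusted p = 0.367). Pabpc1, the main cytoplasmic poly(A)-binding protein, had 1039.8, 921 and 952 CPM of RNA with vehicle and 1113, 1254 and 975 with AP20187, an overlap with a change of 0.20 ± 0.16. Denr and Mcts1, which form a dimer for reinitiation and recycling of the small subunit, had changes of 0.26 ± 0.14 and 0.20 ± 0.20 with no call. Eif5a, the hypusine-carrying factor that helps ribosomes past slow peptide bonds, had 996, 1028 and 1098 CPM with vehicle and 962, 1121 and 1165 with AP20187, and Eif6, which keeps the large subunit apart from the small, had 199, 183 and 186 CPM with vehicle and 202, 156 and 210.4 with AP20187. Both overlapped between treatments, with changes of 0.057 ± 0.15 and 0.00092.

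Translational efficiency, the ratio of footprints to RNA, gave 0 calls among the 45 genes and 0% among the 7315 tested over the table with edgeR, and 0 members with DESeq2, which called 10 genes elsewhere. At an unadjusted p under 0.05 edgeR had 1 member of 45, where 350 of 7315 genes had such a p. The member was Eif2b4, whose ratio changed by -0.62 ± 0.29 (adjusted p = 0.988): its RNA change was the larger of the pair. The fitted changes of the ratio ran from -0.62 to 0.61 (Eif3a). Their standard errors of 0.23 to 0.57, leaving out Eef1a2, set what could be seen with these libraries. Genes known for a pyrimidine tract and tested in footprints were Eef1a1, Eef1b2, Eef1d, Eef1g, Eef2, Eif3a, Eif3e, Eif3f, Eif3h and Pabpc1, and 0 of these 10 were called in RNA, in footprints or in the ratio, where 26.2% of all genes were called in RNA. Eef1a2, the other listed gene of the class, had no footprint test and was called lower in RNA on the few reads given above. The footprint changes of the 10 ran from -0.40 (Eif3f) to 0.63 (Eef1g), and 3 were above 0, where 3660 of 7041 genes were.

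Apart from treatment, the genes differed widely in how many footprints they had for their RNA. With vehicle, footprints over RNA, taken relative to the bulk of the listed genes, were higher for 13 of 44 genes and lower for 15, or 63.6%, where 49.9% of 7306 genes were called (24.2% higher and 25.7% lower). With AP20187, 8 genes were higher and 12 lower, or 45.5%, where 38.5% of 7301 genes were called (18% higher and 20.5% lower). Of these, 8 were higher and 11 lower under both treatments, and 0 went opposite ways. RNA and footprint AP20187 libraries of the same number deviated together, and with that number as a block 10 genes were higher and 14 lower, with Abce1, Eef1b2, Eif2ak2 and Eif3f added, while calls over the whole table went from 2811 to 3641. The AP20187 counts fell to 3 higher and 7 lower without AP20187 RNA library 1, where the whole table had 1593 calls, and to 5 higher without AP20187 RNA library 2 or 3, with 2258 and 2116 calls. The ratio is taken per gene and not per length, so RNA reads over untranslated parts count on the RNA side alone. The lowest values belonged to Eef1g (-4.51 ± 0.30), Eif1 (-4.42 ± 0.25), Eef1a1 (-3.85 ± 0.24) and Eif2s2 (-3.18 ± 0.40), on the log2 scale with vehicle, and all 4 were also lower with AP20187. Eef1g, the gamma subunit of eEF1B, had 321, 356 and 309 CPM of RNA with vehicle and only 7.08, 14.7 and 17.98 CPM of footprints. The highest belonged to Eif3i (1.69 ± 0.23), Eif3k (1.39 ± 0.20), Eif2b2 (1.27 ± 0.22), Eif1ax (1.25 ± 0.37) and Eif2s3x (1.19 ± 0.19). For Eif1ax the log2 ratios of vehicle libraries 1, 2 and 3 were 1.89, 0.91 and 0.23. Each divides footprints by RNA of the same number, though vehicle RNA and footprints were not taken as paired. The vehicle call of Eif1ax was lost without vehicle RNA library 1 (0.0574) or 3 (0.0687) or vehicle footprint library 1 (0.0724) or 2 (0.0562).

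The 4 genes with the lowest ratios share a sequence feature. Many abundant translation factor messengers have been copied back into the mouse genome as processed pseudogenes, and a short read that matches several places may be dropped or split by counting. The coding sequence of each gene was therefore cut into all 30-base windows, about the length of a footprint, and each was looked for, exactly and on both strands, in the annotated transcripts of other genes (GENCODE M21, GRCm38). In Eif1 99.03% of windows were found elsewhere, in Eef1g 95.2%, in Eef1a1 88.5% and in Eif2s2 84.3%. Of the windows that occur in the most other annotated genes, the most central is printed for each of the 4, given with their position in the coding sequence, counted from the A of the start codon, to show a footprint-sized read that could not be placed by its sequence alone.
Eif1, bases 230 to 259, found in 14 other genes: cagaatatggagaagtaattcagctacagg
Eef1a1, bases 1013 to 1042, found in 14 other genes: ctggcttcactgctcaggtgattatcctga
Eef1g, bases 647 to 676, found in 6 other genes: ttgatgctaagaagtttgcagagagccagc
Eif2s2, bases 483 to 512, found in 1 other gene: ccaaactgcttgggcaggctcagaaagaga
Eif1 lies at chr11:100319885-100322096, plus strand, Eef1a1 at chr9:78478449-78489151, minus strand, Eef1g at chr19:8967041-8978479, plus strand and Eif2s2 at chr2:154871410-154892935, minus strand, all on GRCm38. The genes that share most windows with them are processed pseudogenes in each case, Gm10157 for Eif1 (217 of 310 windows), Gm13456 for Eef1a1 (877 of 1357), Gm4366 for Eef1g (1132 of 1282) and Gm9892 for Eif2s2 (813 of 964).

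Across the 44 genes the footprint ratio with vehicle and the share of copied windows went in opposite directions, with Pearson's r of -0.65 and Spearman's rho of -0.36. Over 7117 listed genes the values were -0.19 and -0.15. This is a description over genes that share the same 6 libraries, and the 4 genes picked above for their low ratios are among them. The median ratio was 0.15 for the 15 members with no copied window and 0.28 for the 14 with up to 25%. It was -0.27 for the 10 with up to 75% and -3.85 for the 5 above that. Of the 5 members with more than 75% of windows copied, 4 had a log2 ratio below -1, as did 241 of the 440 listed genes in that range. Eif2s3x is the exception: 95.03% of its windows occur elsewhere, chiefly in the processed pseudogene Gm2223, and its ratio was 1.19 ± 0.19, with 53.4, 54.1 and 50.1 CPM of RNA and 131, 100.0 and 111 CPM of footprints in the vehicle libraries. Over all listed genes the median log2 ratio with vehicle was 0.098 for the 4124 genes with no copied window, -0.10 for the 1928 genes with up to 25%, -0.27 for the 625 genes with up to 75% and -1.41 for the 440 genes above that. Of all listed genes with a coding sequence 14.97% had more than 25% of windows copied, and of the 45 members 15 did. For Eif3d (30.7%) most of these windows lie in Gm17638, an antisense transcript of the same place and not a copy elsewhere. How multiply mapping reads were treated is not given in the sources used here, and its part in these ratios was not tested. Copies outside the annotated transcripts were not searched.

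**Figure D3:**
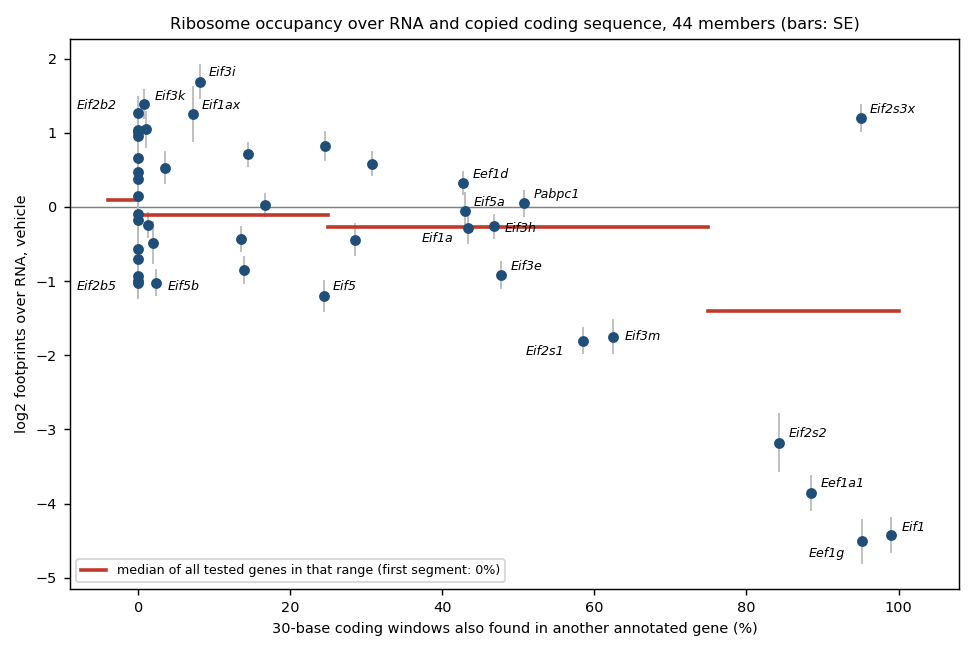
Footprints over RNA with vehicle (log2, vertical axis, bars are standard errors) against the percentage of 30-base coding windows found in another annotated gene (horizontal axis), for 44 genes. Red lines are medians of all listed genes in 4 ranges of the horizontal axis, the first for genes at 0%. Eif1, Eef1g, Eef1a1 and Eif2s2 lie at the lower right and Eif2s3x at the upper right.

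Among the 15 members with no copied window the ratio with vehicle ran from -1.02 to 1.27, and both ends belong to eIF2B. Eif2b1, Eif2b2, Eif2b3 and Eif2b4 had ratios of 0.66 ± 0.22, 1.27 ± 0.22, 1.01 ± 0.31 and 1.04 ± 0.22, all higher than the bulk of genes with adjusted p-values of 0.0307, 0.00151, 0.0227 and 0.00421. The catalytic subunit Eif2b5 went the other way at -1.02 ± 0.21 (adjusted p = 0.00332), and with AP20187 it was -0.97 ± 0.22 (adjusted p = 0.00909). With AP20187 Eif2b2 (1.33, adjusted p = 0.0242) and Eif2b3 (0.96, 0.0145) were called higher, and Eif2b1 (0.47, 0.159) and Eif2b4 (0.48, 0.0915) were not. That Eif2b2 call was lost without AP20187 RNA library 1 (0.0769), 2 (0.0693) or 3 (0.0625). That of Eif2b3 was lost without AP20187 RNA library 1 (0.0641) or 2 (0.0521). The vehicle call of Eif2b1 was lost without vehicle RNA library 1 (0.117), vehicle RNA library 3 (0.111) or vehicle footprint library 3 (0.086). The vehicle call of Eif2b3 was lost without vehicle RNA library 1 (0.0943), 2 (0.0528) or 3 (0.0681) or vehicle footprint library 3 (0.0742). Other members without a copied window and called lower with vehicle were Eif2ak4 (-0.998 ± 0.22), Etf1 (-0.93 ± 0.23), Eif3a (-0.71 ± 0.21) and Eif2ak2 (-0.57 ± 0.18). The Eif3a call was lost with upper-quartile scaling (0.0549) and without vehicle RNA library 1 (0.0829), vehicle RNA library 3 (0.0832) or vehicle footprint library 1 (0.0501). The Eif2ak2 call was lost with upper-quartile scaling (0.106) and without vehicle RNA library 1 (0.111), 2 (0.0638) or 3 (0.105). Eif5b, with 2.40% of its windows copied, was lower with vehicle, at -1.02 ± 0.18.

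Levels divided by length put the subunits of a complex side by side. RNA was divided by the length of the main annotated transcript and footprints by the coding length, both as CPM per kb and given as mean ± SD over the 3 vehicle libraries. The 5 eIF2B genes spanned 2.58-fold in RNA, from 18.5 ± 2.37 (Eif2b3) to 47.9 ± 3.10 (Eif2b2), and 6.85-fold in footprints, from 24.2 ± 5.33 (Eif2b5) to 165 ± 47.2 (Eif2b2). By RNA level per kb the order from the top was Eif2b2, Eif2b5 (43.7 ± 0.946), Eif2b1 (39.2 ± 4.70), Eif2b4 (21.3 ± 4.33) and Eif2b3. The libraries of Eif2b4 and Eif2b3 overlapped, as did those of Eif2b1 and Eif2b5. By footprints per kb the order was Eif2b2, Eif2b1 (129 ± 30.8), Eif2b4 (53.2 ± 4.64), Eif2b3 (39.996 ± 16.4) and Eif2b5, where Eif2b2 overlapped Eif2b1, Eif2b4 overlapped Eif2b3, and Eif2b3 overlapped Eif2b5. With AP20187 the RNA span of the complex was 1.75-fold, from 31.7 ± 6.29 (Eif2b3) to 55.5 ± 7.38 (Eif2b5), and the footprint span was 5.66-fold.

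eIF3 spanned 3.02-fold in RNA per kb with vehicle, from 72.9 ± 4.38 (Eif3f) to 220.3 ± 27.1 (Eif3e). In footprints per kb it spanned 12.02-fold, from 48.6 ± 12.7 (Eif3m) to 584 ± 125 (Eif3i). Eif3m and Eif3e, with 48.6 ± 12.7 and 124 ± 19.5 in footprints, have 62.5% and 47.8% of their windows copied. Among the 6 eIF3 genes with under 5% of windows copied the footprint span was 4.67-fold, from 113 ± 11.5 (Eif3b) to 529.5 ± 89.8 (Eif3k), and the RNA span 2.86-fold. The module of Eif3b, Eif3g and Eif3i had 116 ± 6.31, 127 ± 8.65 and 166 ± 34.9 CPM per kb of RNA, and 113 ± 11.5, 267 ± 28.7 and 584 ± 125 of footprints. Its footprint values did not overlap between the 3 genes.

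**Figure D4:**
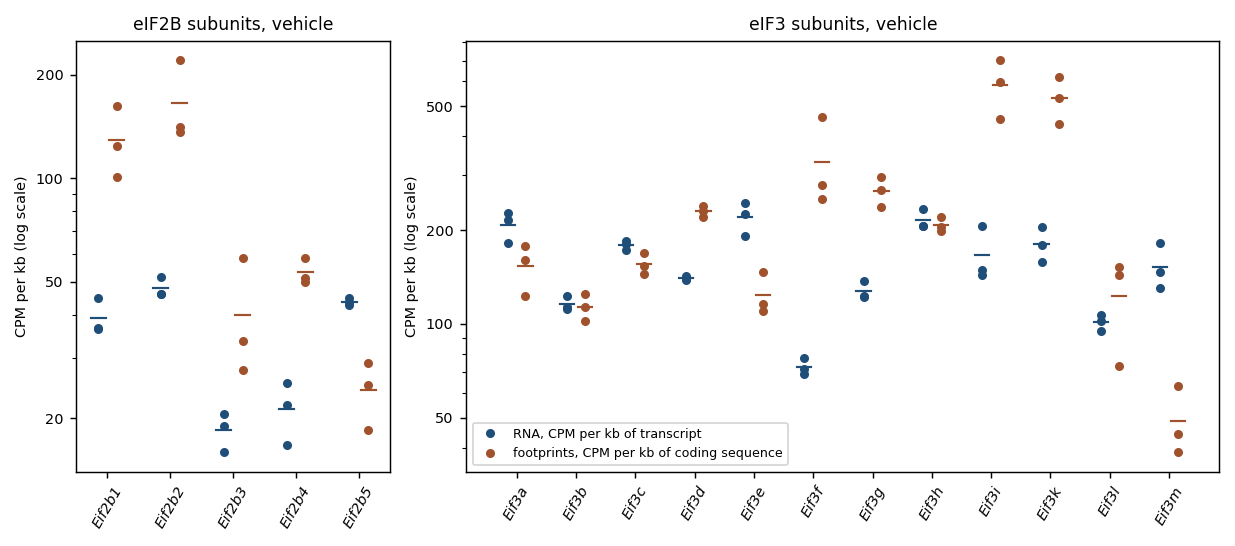
CPM per kb (log axis) of the eIF2B subunits (left) and eIF3 subunits (right) in the 3 vehicle libraries, RNA in blue and footprints in brown, with a line for the mean. On these scales Eif2b5 is the only eIF2B subunit with footprints per kb below its RNA per kb, 24.2 against 43.7.

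Of the elongation genes, Eef1a1 had 3579 ± 444 CPM per kb of RNA with vehicle, Eef2 1318 ± 154, Eef1b2 347 ± 29.03, Eef1g 176 ± 13, Eef1d 79.9 ± 2.53 and Eef2k 6.14 ± 0.870. The order held in every vehicle library. In footprints per kb the highest was Eef1b2 (1662 ± 249.9), followed by Eef2 (1103 ± 174), whose libraries lay below those of Eef1b2, and by Eef1a1 (303 ± 41.96) and Eef1d (259 ± 11.2), which overlapped. Eef2k had 25.5 ± 1.47 and Eef1g 10.1 ± 4.26. Eif5a had the highest mean footprint level per kb of the 45 genes, 2049.6 ± 690.5, with libraries that overlapped those of Eef1b2. The share of copied windows was 95.2% in Eef1g, 88.5% in Eef1a1, 43.0% in Eif5a and 42.8% in Eef1d. In Eef2, Eef1b2 and Eef2k it was 28.5%, 24.6% and 3.55%. The part of copied windows in this footprint order was not tested. Of the eIF1A pair, Eif1a had 168 ± 27.8 CPM per kb of RNA and Eif1ax 17.5 ± 2.12, while their footprints were 868 ± 164 and 476 ± 270.2. They have the same coding length of 432 bases, and 43.4% and 7.20% of their windows occur in other genes. Etf1 had 281 ± 45.6 CPM per kb of RNA, above Gspt1 (90.1 ± 3.04) and Abce1 (85.3 ± 3.14), whose libraries overlapped.

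The start of the messenger was examined because the pyrimidine-tract class is defined there. A C-led run of C or T was looked for within 5 bases of the annotated start on the gene's own strand. RefSeq windows on GRCm38.p6 were matched for 35 of the 45 genes, and 9 of them (25.7%) had a run of at least 5 bases, as did 24.2% of 5675 listed genes. The 3 longest runs are shown with the run in capitals, in windows of 30 bases that begin 5 bases before the annotated start.
Eif3f, chr7:108934410-108934439, plus strand: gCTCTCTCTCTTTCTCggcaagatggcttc
Eif2s3x, chrX:94212627-94212656, minus strand: ttttCCTTTTCTCTCCgagcaagatggctg
Eef1a1, chr9:78481700-78481729, minus strand: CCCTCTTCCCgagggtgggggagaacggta
The runs were 15, 12 and 10 bases long. They began at positions -4, -1 and -5 from the annotated start, so the first bases of each run lie upstream of it. Whether the messengers of these 3 genes begin within the runs was not tested. The footprint changes of these genes with AP20187 were -0.40 ± 0.29, 0.037 ± 0.30 and -0.024 ± 0.27, with adjusted p-values of 0.567, 0.973 and 0.981. For Eef2 and Eef1b2 the runs at the annotated starts were of 1 and 2 bases, and a match or its absence describes these letters only.

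Genes next to the set in the pathway were counted from 6 lists, to be read beside the 12.4% of all genes tested that rose in RNA and the 13.9% that fell. Of 15 listed cap-binding complex genes and their inhibitors 2 rose in RNA and 0 fell: Eif4ebp1, the mTOR-controlled cap-binding repressor, by 1.28 ± 0.23 and the scaffold Eif4g3 by 0.58 ± 0.16. Of 10 cofactors of initiation and poly(A) binding, Pabpc4 rose by 0.46 (adjusted p = 0.0313) and the helicase Ddx3x fell by 0.57 (0.0406). Of 6 listed enzymes that modify eIF5A or eEF2, all 6 had a fitted RNA change above 0, where 3731 of 7314 genes did. Of the 6 enzymes 2 rose: Dohh, which completes hypusine on eIF5A, by 0.59 ± 0.18 (adjusted p = 0.0421) and Dph2, of the diphthamide pathway on eEF2, by 0.72 ± 0.18 (0.0233). Of 8 mitochondrial translation factors 3 rose, Tufm by 0.50, Tsfm by 0.92 and Gfm2 by 0.64, and 0 fell. Of 9 ribosome rescue genes 1 fell, Gtpbp1, by 0.44, and 0 rose. Of 12 genes of the integrated stress response, which eIF2 kinases drive through ATF4, 3 were in the count table, without Atf4. The serine synthesis genes Psat1 and Phgdh rose by 1.12 ± 0.35 (adjusted p = 0.0479) and 1.08 ± 0.30 (0.0333), and Asns had a change of 0.27 (0.193). In footprints 0 genes of these 6 lists were called, where 2.54% of all genes were, and Phgdh had no footprint test. How these list calls fare with single libraries left out is not given here.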

How the data were processed

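The authors deposited read counts per gene, for RNA and for footprints, in 12 libraries. Reads were processed with bcl2fastq 1.8.3, cutadapt, STAR, Bowtie2 and HTSeq on mm10, per the submitters' processing notes, which do not give a role or order. The strand setting of the counting, the handling of multiply mapping reads and the choice of the 7318 genes are not stated in any source used here. RNA libraries were made with a stranded mRNA kit, and cycloheximide was present during digestion of the glands, per the labels' protocols.

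Counts were tested with edgeR 4.0.16 in R 4.3.3 (TMM scaling, filterByExpr, quasi-likelihood test, Benjamini-Hochberg threshold of 0.05 over all tested genes). Each of the 5 comparisons was fitted on the libraries it concerns: the AP20187 response of RNA, of footprints and of their ratio (an interaction term), and footprints over RNA under each treatment. Fold changes are log2 ± SE, and levels are CPM over the listed genes. The 3 response fits were tested on simulated data, and the fits of footprints over RNA were not. Alternatives were DESeq2 1.42.0, upper-quartile scaling, no filter on low counts, a replicate block and leaving out each library. Same-numbered libraries were checked for shared deviations: vehicle and AP20187 footprints (r of 0.15, 0.26 and 0.34) and AP20187 RNA and footprints (0.45, 0.52 and 0.37) were paired by this measure, which comes from the data and not from the labels, and the other pairs were not. For vehicle RNA and footprints r was 0.05, 0.08 and 0.33 at the same number, and 0.16 between RNA library 2 and footprint library 1.

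Genes given with values in every RNA library include those called in a response and a fixed list of key factors. They also include the member of each complex with the largest RNA change or highest RNA level, except for Denr. Footprint values by library are given for only some of these genes. Other genes are named for their footprints, ratio or copied windows. The members and lists were chosen with earlier results of these data known.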

Additional observations from a re-analysis of the deposited data

How the results depend on the processing

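The members rising in RNA numbered 4 with edgeR, 6 with DESeq2, which added Eif3b and Eif2ak2, and 1 with the replicate block, and 1 to 7 when single libraries were left out. The block did not pair RNA libraries (r of 0.20, -0.05 and -0.06), and under it Eif2b3 (adjusted p = 0.0546), Eif2d (0.0921), Eif3g (0.0602) and Eef1a2 (0.0601) missed the threshold while Eif1a (0.0499) and Etf1 (0.0491) passed. The members falling in RNA numbered 1 with edgeR, 2 with DESeq2, 2 with the block and 0 to 2 with single libraries left out. RNA calls in either direction over the whole table were 1919, 2491 and 1281, and 538 to 2214 with single libraries left out. In footprints 0 members were called, with 1 under DESeq2 and 2 under the replicate block, where 179, 538 and 715 genes of the table were. With AP20187 the members of higher footprint ratio ranged from 3 to 9 and those of lower ratio from 7 to 13 over single libraries left out. With vehicle these ranged from 9 to 13 and from 13 to 15. Ratio calls over the whole table ranged from 1593 to 3220 with AP20187 and from 2623 to 3958 with vehicle in these fits. With the replicate block the vehicle call of Eif2ak2 was lost (0.0562). No called member changed direction under any alternative run. Among members with no call the sign changed under at least 1 alternative for 10 in RNA and 17 in footprints. Upper-quartile scaling moved the median footprint ratio of all genes from -0.02 to 0.16 with vehicle, relative to which the ratios shift. Footprint libraries were the shallower ones, which limits what their comparisons can show. The cause of these shifts was not tested.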
